A study of Arabidopsis thaliana with 6 samples.

Results

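The 37 genes described here are the listed nuclear genes for subunits of photosystem I and photosystem II, the Rieske protein, plastocyanin, ferredoxin, ferredoxin-NADP oxidoreductase, the plastid ATP synthase, and the cyclic electron flow proteins PGR5 and PGRL1. The rule that lists them by locus identifier uses their function and no measured value, but the list was chosen with earlier results of these data known. They are 37 of the 18220 nuclear protein-coding genes that held assigned poly(A) site clusters. Arabidopsis thaliana seedlings of the Col 0 wild type were raised on agar under constant white light for 1 to 2 weeks and all were then kept in darkness for 48 h. The Light group then had light for 6 h (3 libraries), and the Dark group stayed in darkness for those 6 h (3 libraries). RNA came from whole seedlings, so roots and shoots were pooled. Each library was made by 3'READS+, an assay that sequences the 3' end of polyadenylated RNA and so gives both the amount of a gene's RNA and the position of its poly(A) site.

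The subunits belong to the thylakoid electron transport chain. Photosystem II takes electrons from water and passes them through plastoquinone and the cytochrome complex to plastocyanin. Photosystem I then lifts them to ferredoxin, from which an oxidoreductase makes NADPH, while the protons moved on the way drive ATP synthase. In Arabidopsis the reaction centre cores of both photosystems are encoded in the plastid, whereas the peripheral, lumenal and stromal subunits listed here are encoded in the nucleus, several of them by a pair of paralogous genes.

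The libraries held 13.4, 13.2 and 13.5 M reads in Light, against 13.4, 14.5 and 14.5 M reads in Dark. All 37 genes were found, with 752 to 322892 reads each over the 6 libraries, and all 37 passed the filter on low counts. In the windows near the gene ends from which strand was inferred, the lowest share of reads on the inferred strand was 99.5%, in PSB27. Levels below are in CPM, assigned reads scaled to the library total with TMM factors. They were not divided by gene length, since each RNA gives a read only at its 3' end. The scaling shifts the changes of all genes, which matters most for small ones. The median log2 change of all genes was 0.04 with TMM scaling and 0.50 with library totals alone, and 51.2% of all calls were higher in Light with TMM scaling, against 68.3% with library totals. The labels do not say whether the replicates came from separate cultures, so p-values measure the spread between these libraries, which may be technical. In whole seedlings, fewer cells of a type and less RNA per cell cannot be told apart.

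Most of the module was higher after 6 h of light. Of the 37 genes, 26 (70.3%) rose in Light, 4 (10.8%) fell and 7 missed the threshold (edgeR's quasi-likelihood test, Benjamini-Hochberg adjusted p below 0.05). Of all 16773 genes tested, 37.4% were higher and 35.6% lower, so that 72.9% of all genes were called in either direction. At least 2-fold higher were 21 of the 37 (56.8%), against 24.5% of all genes. PGRL1B alone among the 37 was at least 2-fold lower, a class that held 20.9% of all genes. The median log2 change was 1.29 over the 37 genes and 0.04 over all genes tested. Since the rate of calls varied with read number, the 25 members with at least 10000 reads were also set beside all genes with that many. Of these 25, 17 (68.0%) were higher and 1 was lower, whereas 32.1% of all such genes were higher and 53.2% lower.

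The 37 genes together held 24893, 26616 and 23593 CPM in the 3 Light libraries, against 15399, 14338 and 15649 CPM in the 3 Dark libraries, a ratio of means of 1.65. Every Light library lay above every Dark library in this sum. Gene by gene, all Light libraries lay above all Dark ones in 28 of the 37 genes and below them in 4, against 39.1% and 36.6% of all genes, and the groups overlapped in 5. Without overlap were 75.7% of all genes. As a share of assigned reads before scaling, the 37 genes took 2.93% ± 0.138 in Light and 1.29% ± 0.112 in Dark (SD of 3 libraries). The TMM factors, 1.15 to 1.18 in Light and 0.813 to 0.884 in Dark, separate this wider contrast from the ratio of 1.65. Summed by role, photosystem I subunits had 7903 ± 166 CPM in Light and 5168 ± 160.3 CPM in Dark. The oxygen-evolving subunits of photosystem II summed to 2939 ± 132 CPM in Light and 2082 ± 139 CPM in Dark, and its small subunits to 6436 ± 814 CPM in Light and 4441 ± 465 CPM in Dark. The ratios of these means were 1.53, 1.41 and 1.45. The electron carriers summed to 5217 ± 586 CPM in Light and 2285 ± 84.1 CPM in Dark, a ratio of 2.28, and the ATP synthase subunits to 2260.2 ± 83.1 CPM in Light and 993 ± 59.0 CPM in Dark, also a ratio of 2.28. For the sum of both photosystems the ratio was 1.48, so the carriers and the ATP synthase had the larger ratios of sums. Abundant genes weigh most in these sums, such as PSBR with a mean of 4339 CPM and PETE2 with 3704 CPM in Light. Gene by gene, the median log2 change was 1.05 in photosystem I, 1.41 in the carriers and 1.65 in the ATP synthase. In photosystem II it was 1.29 for the oxygen-evolving subunits and 1.63 for the small ones.

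**Figure D1:**
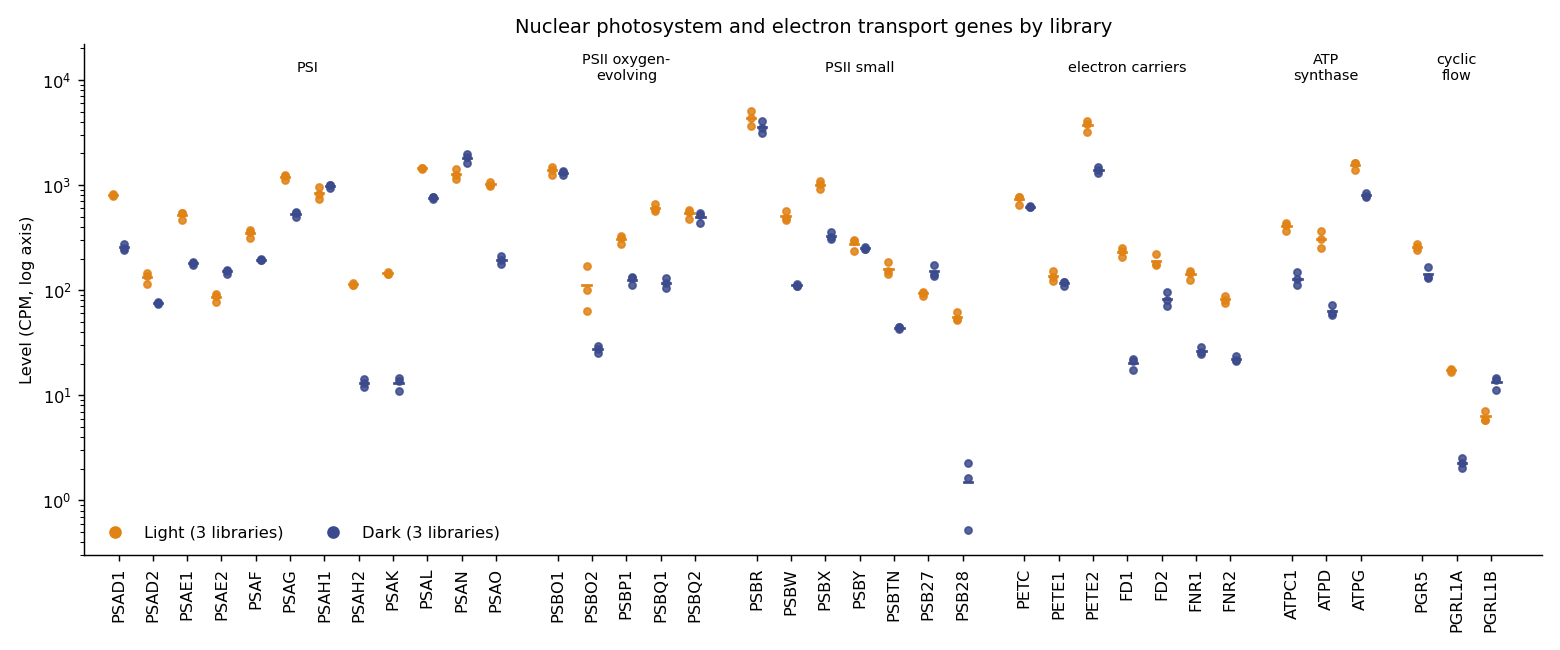
Level of each of the 37 genes in every library, in CPM on a log axis, with the 3 Light libraries and the 3 Dark libraries as separate points and a short line at each mean, Light left of Dark. Light points lie above all Dark points in 28 genes, below them in 4, and overlap with them in 5.

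Photosystem I has 12 genes in the list, of which 9 rose in Light, 2 fell and 1 missed the threshold. Over all genes tested, 37.4% rose and 35.6% fell. The greatest change was in PSAK (AT1G30380), a membrane subunit at the edge of the complex that binds antenna proteins, with 148, 143 and 142 CPM in Light, against 14.6, 10.9 and 13.5 CPM in Dark. It was 11.1-fold higher (log2 change 3.47 ± 0.13 SE, edgeR adjusted p = 4.25e-11). PSAO (AT1G08380), a small subunit on the side where light-harvesting complex II docks, had 1079, 996 and 972 CPM in Light, against 209.7, 179 and 195 CPM in Dark. It was 5.22-fold higher (log2 change 2.38 ± 0.08 SE, edgeR adjusted p = 3.02e-10). For both genes the Light and Dark libraries were far apart, with no overlap.

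PSAG (AT1G55670), which anchors antenna on the side of the complex opposite PsaK, had 1209, 1257 and 1120.0 CPM in Light, against 502, 560.1 and 538 CPM in Dark, and was 2.24-fold higher (log2 change 1.16 ± 0.07 SE, edgeR adjusted p = 2.09e-07). PSAL (AT4G12800), which sits beside PsaH and PsaO, had 1455, 1421 and 1459.8 CPM in Light, against 775, 766 and 735 CPM in Dark. PSAF (AT1G31330), which helps dock plastocyanin on the lumenal side, had 315, 354 and 369.8 CPM in Light, against 192, 196 and 195 CPM in Dark. These last genes changed less than 2-fold, PSAL by 1.91-fold (edgeR adjusted p = 1.24e-06) and PSAF by 1.78-fold (edgeR adjusted p = 5.32e-06), yet the spread within each group was small and no Light library overlapped a Dark one. With library totals alone both changes were over 2-fold (log2 change 1.38 for PSAL and 1.29 for PSAF). PSAN (AT5G64040), the other lumenal subunit that assists plastocyanin, moved the opposite way. It had 1137, 1249 and 1417 CPM in Light, against 1997, 1609 and 1843 CPM in Dark, and was 1.43-fold lower (log2 change -0.52 ± 0.13 SE, edgeR adjusted p = 0.00156). All 3 Light libraries lay below all 3 Dark libraries, but with library totals in place of TMM scaling the log2 change of PSAN was -0.07 (edgeR adjusted p = 0.635), so this call rests on the scaling.

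The stromal subunits PsaD and PsaE, which form the landing site for ferredoxin, and PsaH, to which light-harvesting complex II binds in state transitions, each come from a pair of genes. PSAD1 (AT4G02770) had 786, 803 and 815 CPM in Light, against 276, 252 and 241 CPM in Dark, and was 3.12-fold higher (log2 change 1.64 ± 0.06 SE, edgeR adjusted p = 5.67e-09). Its paralog PSAD2 (AT1G03130) had 115, 135 and 147 CPM in Light, against 74.6, 76.1 and 77.8 CPM in Dark, and was 1.74-fold higher (edgeR adjusted p = 2.01e-05). Both PsaD genes were higher in Light without overlap, the more abundant one by more.

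For PsaE the paralogs changed in opposite directions. PSAE1 (AT4G28750) had 537, 538 and 469 CPM in Light, against 175, 186 and 183 CPM in Dark, and was 2.84-fold higher (log2 change 1.51 ± 0.07 SE, edgeR adjusted p = 1.41e-08). PSAE2 (AT2G20260) had 91.2, 87.6 and 78.0 CPM in Light, against 152, 156 and 144 CPM in Dark, and was 1.76-fold lower (log2 change -0.82 ± 0.08 SE, edgeR adjusted p = 7.92e-06). In Light PSAE1 was far above PSAE2, whereas in Dark the levels of the paralogs were close.

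For PsaH the change was called in the minor gene. PSAH2 (AT1G52230) had 112, 118 and 112 CPM in Light, against 12.0, 13.1 and 14.3 CPM in Dark, and was 8.67-fold higher (log2 change 3.12 ± 0.08 SE, edgeR adjusted p = 4.65e-11). PSAH1 (AT3G16140) had 743, 823 and 955 CPM in Light, against 942, 998 and 1003 CPM in Dark, and did not pass the test (log2 change -0.22 ± 0.11 SE, edgeR adjusted p = 0.0925). For PSAH1, 1 Light library lay within the Dark range and the others lay below it. Its direction turned with library totals alone (log2 change 0.23, edgeR adjusted p = 0.0763), and without Light replicate 3 it passed as lower (log2 change -0.32, edgeR adjusted p = 0.0231).

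With paralogs summed, the list gives 9 photosystem I subunits, and their levels lay closer to each other in Light than in Dark, a difference given here without a test. The subunit with the highest level exceeded the one with the lowest by 9.84, 9.93 and 10.3 times in the 3 Light libraries, against 136.3, 147 and 136.0 times in the 3 Dark libraries. The SD of the log2 levels over the 9 subunits was 1.07, 1.08 and 1.10 in Light, against 2.01, 2.10 and 2.03 in Dark. PSAK was the subunit with the lowest level in all 6 libraries, and much of the difference rests on it. Over the other 8 subunits, a comparison chosen after its values were seen, the span was 4.62, 4.01 and 3.95 times in Light, against 10.4, 8.99 and 9.45 times in Dark. The highest was PSAL in Light and PSAN in Dark. The sum of the PsaD genes was 934 ± 30.5 CPM in Light and 333 ± 16.3 CPM in Dark, that of the PsaE genes 600.2 ± 45.9 CPM in Light and 332 ± 8.92 CPM in Dark, and that of the PsaH genes 955 ± 107 CPM in Light and 994 ± 34.7 CPM in Dark (SD of 3 libraries). The PsaH sums of the groups differed by less than their spread, whereas the PsaD and PsaE sums were well apart.

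**Figure D2:**
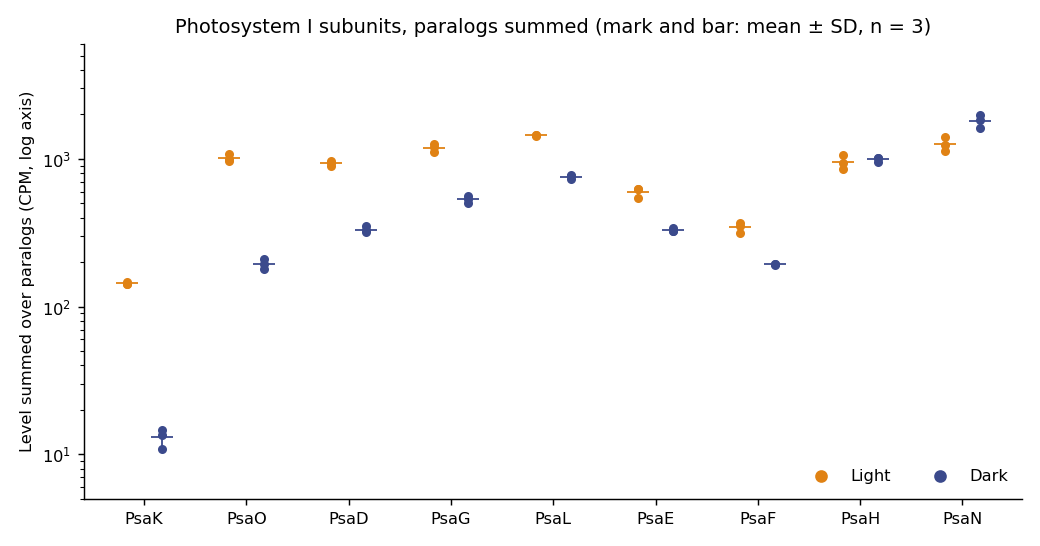
Summed level of each of 9 photosystem I subunits (paralogs added together) per library, in CPM on a log axis, Light left of Dark, with the mean and SD of 3 libraries. The span between the lowest and the highest subunit is about 10-fold in each Light library (9.84 to 10.3) and over 130-fold in each Dark library (136 to 147). PSAK is the lowest point in every library.

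Of the 5 genes for the oxygen-evolving subunits of photosystem II, 3 rose in Light and 2 missed the threshold. The share of all genes that rose was 37.4%. These lumenal proteins shield the manganese cluster that splits water. PSBQ1 (AT4G21280), a gene for PsbQ, had 593, 655 and 564 CPM in Light, against 130.1, 106 and 116 CPM in Dark, and was 5.15-fold higher (log2 change 2.36 ± 0.11 SE, edgeR adjusted p = 5.42e-10). PSBP1 (AT1G06680), which encodes PsbP, the protein that helps hold calcium and chloride at the cluster, had 276, 326 and 316 CPM in Light, against 133, 111 and 131 CPM in Dark, and was 2.45-fold higher (log2 change 1.29 ± 0.11 SE, edgeR adjusted p = 1.69e-07). In both genes all Light libraries lay above all Dark ones. PSBO2 (AT3G50820), the minor gene for the manganese-stabilising protein PsbO, had 100.3, 63.5 and 169 CPM in Light, against 29.3, 25.2 and 27.6 CPM in Dark, and was 4.06-fold higher (log2 change 2.02 ± 0.41 SE, edgeR adjusted p = 7.56e-06). Its Light libraries were spread widely, with Light replicate 3 highest and Light replicate 2 lowest, although all of them lay above Dark.

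The gene that supplied most PsbO RNA and the other PsbQ gene were not called. PSBO1 (AT5G66570) had 1391, 1494 and 1259 CPM in Light, against 1321, 1244 and 1367 CPM in Dark (log2 change 0.08 ± 0.08 SE, edgeR adjusted p = 0.540). PSBQ2 (AT4G05180) had 476, 549.6 and 585 CPM in Light, against 545, 437 and 524 CPM in Dark (log2 change 0.10 ± 0.13 SE, edgeR adjusted p = 0.475). In each case the groups overlapped, and both genes passed as higher with library totals alone, with log2 changes of 0.53 and 0.55 (edgeR adjusted p = 6.09e-04 and 0.00174). Summed over paralogs, PsbO was 1492 ± 64.5 CPM in Light and 1338 ± 63.8 CPM in Dark, and PsbQ was 1140.5 ± 68.3 CPM in Light and 619 ± 68.9 CPM in Dark (SD of 3 libraries).

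The 7 genes for small subunits and assembly proteins of photosystem II divided into 4 higher, 1 lower and 2 not called. All genes divided into 37.4% higher, 35.6% lower and the rest not called. The largest fitted change of the whole list was in PSB28 (AT4G28660), a protein that joins photosystem II during its assembly. It had 52.3, 62.1 and 52.9 CPM in Light, against 2.28, 0.525 and 1.64 CPM in Dark. In raw reads these were 802, 921 and 825 in Light, against 26, 6 and 20 in Dark. The groups were far apart, but the Dark values rest on few reads and varied among themselves, so that the log2 change of 5.22 had an SE of 0.62 (edgeR adjusted p = 4.21e-10). PSB27 (AT1G03600), a lumenal protein of assembly and repair, went the other way, with 95.7, 94.8 and 88.6 CPM in Light, against 175, 136 and 143 CPM in Dark. It was 1.63-fold lower (log2 change -0.70 ± 0.12 SE, edgeR adjusted p = 8.18e-05), with all Light libraries below all Dark ones. With library totals its log2 change was -0.25 and no longer passed (edgeR adjusted p = 0.0781).

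Among the structural small subunits, PSBW (AT2G30570), which stabilises the supercomplexes of photosystem II with its antenna, had 486, 565 and 462 CPM in Light, against 114, 110.1 and 109.8 CPM in Dark, and was 4.53-fold higher (log2 change 2.18 ± 0.09 SE, edgeR adjusted p = 7.35e-10). PSBTN (AT3G21055), a small lumenal subunit, had 153, 184 and 141 CPM in Light, against 44.7, 42.4 and 44.3 CPM in Dark, and was 3.64-fold higher (edgeR adjusted p = 7.00e-09). PSBX (AT2G06520), a small membrane subunit, had 1021, 1084 and 918 CPM in Light, against 354, 304 and 320.2 CPM in Dark, and was 3.09-fold higher (edgeR adjusted p = 1.28e-08). These genes were each higher in every Light library than in any Dark one.

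PSBR (AT1G79040), a small subunit needed for stable binding of PsbP, had the highest level of the 37 genes in every library, with 4332, 5023 and 3662 CPM in Light, against 3518, 3120.1 and 4033 CPM in Dark. The groups overlapped and it did not pass (log2 change 0.29 ± 0.17 SE, edgeR adjusted p = 0.0753). Without Light replicate 3 it did (log2 change 0.40, edgeR adjusted p = 0.0244). PSBY (AT1G67740), a small membrane subunit near the cytochrome of photosystem II, had 294, 237 and 299 CPM in Light, against 249, 256 and 247 CPM in Dark, with overlap, and did not pass (log2 change 0.14 ± 0.11 SE, edgeR adjusted p = 0.258). Both passed as higher with library totals alone, PSBR with a log2 change of 0.73 and PSBY with 0.60 (edgeR adjusted p = 3.71e-04 and 3.19e-04).

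Between and after the photosystems, 5 of the 7 electron carrier genes rose in Light, none fell and 2 missed the threshold. Among all genes 37.4% rose and 35.6% fell. Ferredoxin, the iron-sulfur protein reduced by photosystem I, comes in leaves from FD1 and FD2. FD1 (AT1G10960) had 237, 253 and 209 CPM in Light, against 21.2, 17.5 and 21.9 CPM in Dark, and was 11.5-fold higher (log2 change 3.52 ± 0.13 SE, edgeR adjusted p = 4.30e-11). FD2 (AT1G60950) had 176, 221 and 173 CPM in Light, against 70.9, 96.6 and 80.3 CPM in Dark, and was 2.30-fold higher (edgeR adjusted p = 2.11e-06). FD1 was the more abundant of the pair in all 3 Light libraries, and FD2 in all 3 Dark libraries.

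The leaf genes for ferredoxin-NADP oxidoreductase, the enzyme that makes NADPH, were both higher. FNR1 (AT5G66190) had 147, 152 and 125 CPM in Light, against 25.6, 28.5 and 24.6 CPM in Dark, and was 5.40-fold higher (log2 change 2.43 ± 0.11 SE, edgeR adjusted p = 5.24e-10). FNR2 (AT1G20020) had 81.5, 75.3 and 88.8 CPM in Light, against 23.6, 21.2 and 21.5 CPM in Dark, and was 3.71-fold higher (edgeR adjusted p = 3.87e-09). Summed, the FNR genes had 223 ± 7.98 CPM in Light and 48.3 ± 1.97 CPM in Dark, and the ferredoxin genes had 423 ± 46.8 CPM in Light and 103 ± 11.0 CPM in Dark (SD of 3 libraries). Neither gene overlapped between the groups.

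Plastocyanin, the copper protein that feeds photosystem I, was dominated by PETE2 (AT1G20340). PETE2 had 3838, 4081 and 3195 CPM in Light, against 1478, 1312 and 1395 CPM in Dark, and was 2.66-fold higher (log2 change 1.41 ± 0.12 SE, edgeR adjusted p = 1.24e-07). PETE1 (AT1G76100) had 123, 151 and 133 CPM in Light, against 119, 110.4 and 119.6 CPM in Dark (log2 change 0.23 ± 0.09 SE, edgeR adjusted p = 0.0767). PETC (AT4G03280), the Rieske iron-sulfur protein of the cytochrome complex, had 777, 771 and 643 CPM in Light, against 634, 617 and 617 CPM in Dark (log2 change 0.23 ± 0.09 SE, edgeR adjusted p = 0.0706). In PETE1 and PETC every Light library lay above every Dark one, but the differences were small and did not pass. PETE1 passed without Light replicate 1 (log2 change 0.29, edgeR adjusted p = 0.0423) and PETC without Light replicate 3 (log2 change 0.31, edgeR adjusted p = 0.0189). With library totals alone both log2 changes were 0.68 and passed (edgeR adjusted p = 9.38e-05 for PETE1 and 6.27e-05 for PETC).

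The 3 listed genes of the plastid ATP synthase were all higher, against 37.4% of all genes. ATPD (AT4G09650), the delta subunit that joins the catalytic head to the stator, had 250.1, 309.6 and 365 CPM in Light, against 60.0, 72.0 and 58.5 CPM in Dark, and was 4.86-fold higher (log2 change 2.28 ± 0.18 SE, edgeR adjusted p = 5.97e-09). ATPC1 (AT4G04640), the gamma subunit that forms the rotating shaft, had 363, 417 and 434 CPM in Light, against 113, 147 and 127 CPM in Dark, and was 3.13-fold higher (log2 change 1.65 ± 0.14 SE, edgeR adjusted p = 2.90e-08). ATPG (AT4G32260), a stator subunit of the membrane part, had 1625, 1625 and 1391 CPM in Light, against 776, 841 and 786 CPM in Dark, and was 1.93-fold higher (edgeR adjusted p = 2.39e-06). None of the 3 overlapped between groups, as in 75.7% of all genes. ATPG was the most abundant and changed least.

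Of the proteins of cyclic electron flow, which return electrons from ferredoxin to the plastoquinone pool, 2 genes were higher and 1 was lower. With 37.4% of all genes higher and 35.6% lower, 3 genes are too few to set this split apart. PGR5 (AT2G05620) had 255, 273 and 240.2 CPM in Light, against 129, 165 and 134 CPM in Dark, and was 1.79-fold higher (log2 change 0.84 ± 0.12 SE, edgeR adjusted p = 1.65e-05). PGRL1A (AT4G22890) had 17.9, 17.4 and 16.8 CPM in Light, against 2.28, 2.01 and 2.55 CPM in Dark, and was 7.58-fold higher (log2 change 2.92 ± 0.10 SE, edgeR adjusted p = 3.45e-09). PGRL1B (AT4G11960) had 5.87, 5.87 and 7.12 CPM in Light, against 11.1, 14.1 and 14.5 CPM in Dark, and was 2.10-fold lower (log2 change -1.07 ± 0.15 SE, edgeR adjusted p = 6.13e-05). PGRL1 RNA was thus mostly PGRL1A in Light and mostly PGRL1B in Dark. The pair had low counts, with 274, 258 and 262 raw reads of PGRL1A in Light, against 26, 23 and 31 in Dark, and 90, 87 and 111 of PGRL1B in Light, against 127, 161 and 176 in Dark.

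Since 9 subunits of the list have 2 genes each, the share of each paralog in its pair was compared between the groups. Reads of a pair share the library, so depth and scaling cancel in this ratio. In all 9 pairs the 3 Light libraries lay apart from the 3 Dark libraries. The levels of 75.7% of all genes were also without overlap, and ratios of other gene pairs were not computed. Each exact two-sided permutation test over 20 arrangements gave p = 0.1, the smallest that 3 libraries against 3 allow. It was 0.1 also after Benjamini-Hochberg adjustment over the 9 pairs. The sources used here do not say how reads that map to both paralogs were treated, so reads of near-identical copies could be split between them.

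In PGRL1, ferredoxin and PsbQ the gene with the higher mean was not the same in the 2 groups. PGRL1A made up 75.3, 74.8 and 70.2% in Light, against 17.0, 12.5 and 15.0% in Dark. FD1 made up 57.3, 53.4 and 54.7% in Light, against 23.0, 15.3 and 21.4% in Dark. PSBQ1 made up 55.5, 54.4 and 49.1% in Light, against 19.3, 19.5 and 18.2% in Dark. In the last pair the genes were near equality in Light, with 1 library just under it, and PSBQ1 was a clear minority in Dark.

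PSAE1, which had 85.5, 86.0 and 85.8% in Light, against 53.5, 54.3 and 55.9% in Dark, was far above PSAE2 in Light and near parity with it in Dark. PSAH1 held 86.9, 87.5 and 89.5% in Light, against 98.7, 98.7 and 98.6% in Dark, so that PSAH2 was a small but clear part in Light and a trace in Dark. PSAD1 held 87.2, 85.6 and 84.7% in Light, against 78.7, 76.8 and 75.6% in Dark, and FNR1 64.4, 66.9 and 58.6% in Light, against 52.0, 57.4 and 53.3% in Dark. The major gene of these last pairs was the same in both groups, and its share was higher in Light.

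For PsbO and plastocyanin the rare and the common gene kept their ranks. PSBO1 held 93.3, 95.9 and 88.2% in Light, against 97.8, 98.0 and 98.0% in Dark. PETE1 held 3.11, 3.58 and 4.00% in Light, against 7.44, 7.76 and 7.90% in Dark. On the log2 scale the PsbO ratio had the widest error of the 9 pairs (SE 0.48), with PSBO2 varying among Light libraries. As log2 differences of the ratio, the 9 pairs ranged from -3.35 ± 0.12 for PSAH1 over PSAH2 to 4.00 ± 0.19 for PGRL1A over PGRL1B (SE).

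**Figure D3:**
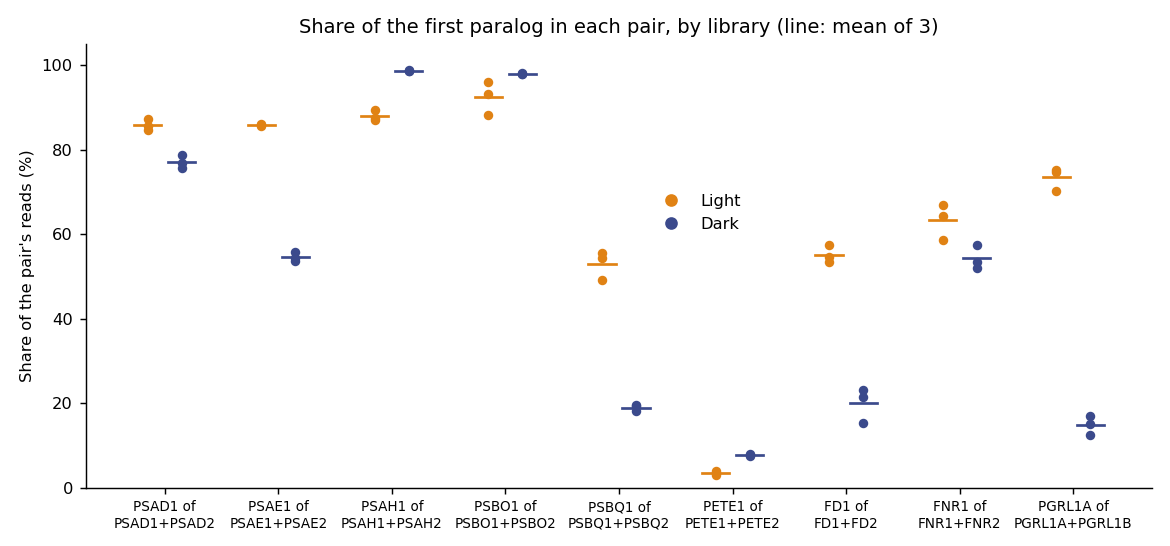
Share of the first-named gene in the reads of its paralog pair, in percent, per library, for 9 pairs, Light left of Dark, with a line at each mean. Light and Dark libraries are apart in all 9 pairs, as are the levels of 75.7% of all genes. PGRL1A, FD1 and PSBQ1 average 73.4, 55.1 and 53.0% in Light, against 14.8, 19.9 and 19.0% in Dark.

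3'READS+ also shows where each RNA ends. Site positions are given as deposited, on TAIR10 per the submitters' processing notes. A site is a cluster with at least 5% of its gene's reads, counted over Light and Dark libraries together. In genes with more reads in Light, this cut therefore keeps minor sites used in Light more readily than minor sites used in Dark. Most members ended in a narrow window. The most used site held over 90% of reads in 8 of the 37 genes and 43.4% in the least concentrated gene, with a median of 71.6%. In 34 genes under 1% of reads in every library lay more than 400 nt upstream of the last major site. PSAL, PSBQ1, PSBR, PSBTN, PSB27, PETC and FD1 had 1 site only and could not be tested for usage.

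Site usage changed in 17 of the 30 members that had 2 or more sites (56.7%; edgeR's diffSpliceDGE with Simes' method, adjusted over all genes), against 25.7% of the 11074 genes tested. Genes with more reads were called more often. Among genes with at least 10000 reads 47.8% were called, against 14 of the 20 members with that many (70.0%). For direction, the 2 most used sites of each gene were compared, and the distal share is the share of the site farther along the RNA in the reads of both. This share was higher in Light in 8 of the 30 members (26.7%) and lower in 3 (10.0%), while over all genes 12.5% were higher and 3.29% lower. These counts depended on Dark replicate 3: without it, 4 members were called distal and 2 proximal, and 1028 pairs of all genes were called in place of 1753. At 10000 reads or more, 50.0% of 20 members were called in either direction, against 33.9% of all genes. The distal share was higher in 7 and lower in 3 of these 20, against 27.1% and 6.81% of all genes with as many reads. The sites of a pair lay 25 to 122 nt apart, with a median of 46.5 nt in members and 49 nt over all genes.

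**Figure D4:**
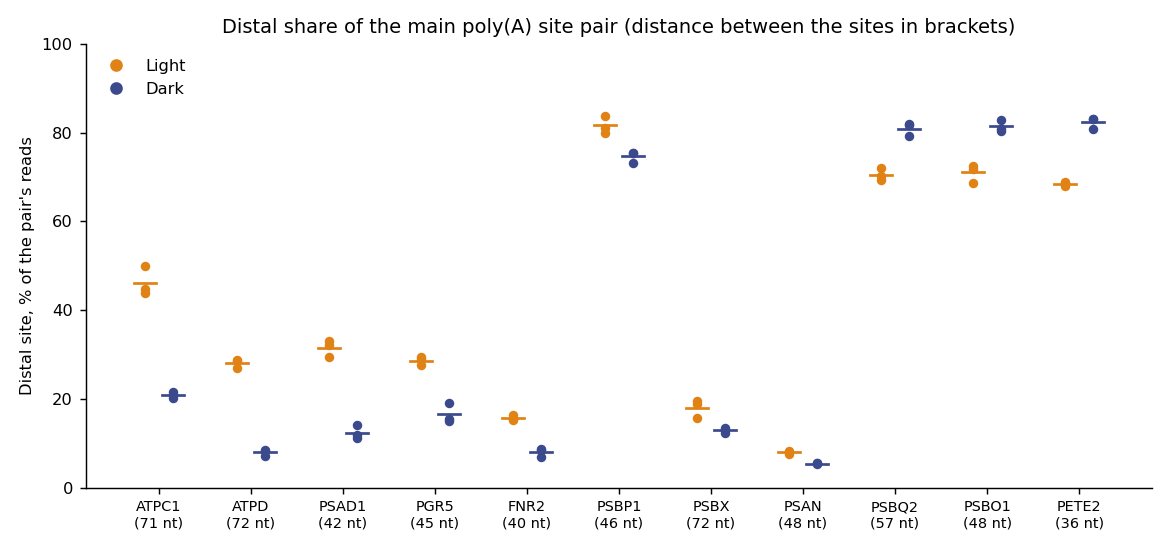
Distal share of the main pair of poly(A) sites, in percent, per library, Light left of Dark, with a line at each mean, for the members whose pair was called. The share is higher in Light in 8 genes, by up to 25.4 points in ATPC1, and lower in 3, with differences of -10.4 to -13.8 points.

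The largest shifts towards the distal site were in ATPC1 and ATPD of the ATP synthase and in PSAD1. In ATPC1 (chromosome 4, minus strand, 2350570 (proximal) and 2350499 (distal)) the distal share was 44.0, 50.0 and 44.8% in Light, against 20.9, 20.1 and 21.6% in Dark (25.4 points, edgeR adjusted p = 3.31e-06). In ATPD (chromosome 4, plus strand, 6101651 (proximal) and 6101723 (distal)) it was 28.5, 27.0 and 28.7% in Light, against 8.44, 8.32 and 7.08% in Dark (20.1 points, edgeR adjusted p = 3.52e-07). In PSAD1 (chromosome 4, minus strand, 1229156 (proximal) and 1229114 (distal)) it was 29.4, 33.2 and 32.2% in Light, against 11.8, 11.2 and 14.0% in Dark (19.2 points, edgeR adjusted p = 7.78e-08). The distal site was the minor one of the pair in both groups, except in Light replicate 2 of ATPC1, where the sites were level. Light and Dark libraries were far apart in all 3 genes. ATPG, the other listed ATP synthase gene, shifted by 5.44 points and its pair was not called (edgeR adjusted p = 0.0785).

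PGR5 (chromosome 2, minus strand, 2081081 (proximal) and 2081036 (distal)) had a distal share of 29.5, 29.0 and 27.6% in Light, against 15.1, 19.1 and 15.5% in Dark (12.1 points, edgeR adjusted p = 0.00122). FNR2 (chromosome 1, plus strand, 6944975 (proximal) and 6945015 (distal)) had 16.3, 15.3 and 15.6% in Light, against 8.55, 8.71 and 6.87% in Dark (7.69 points, edgeR adjusted p = 0.00405). In both, the main end stayed proximal and the libraries of the groups did not overlap. PSAN (chromosome 5, minus strand, 25628646 (proximal) and 25628598 (distal)) had 8.15, 8.17 and 7.70% in Light, against 5.37, 5.49 and 5.48% in Dark (2.56 points, edgeR adjusted p = 0.00878), a small but well separated difference in a gene with 121636 reads.

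PSBP1 (chromosome 1, plus strand, 2049301 (proximal) and 2049347 (distal)) had 80.0, 83.8 and 81.1% in Light, against 75.5, 75.5 and 73.2% in Dark (6.92 points, edgeR adjusted p = 0.0365), and PSBX (chromosome 2, minus strand, 2587782 (proximal) and 2587710 (distal)) had 19.0, 15.8 and 19.5% in Light, against 13.5, 12.4 and 13.0% in Dark (5.10 points, edgeR adjusted p = 0.0291). These calls were the least firm. PSBP1 lost its pair call when any library other than Dark replicate 2 was left out, with adjusted p up to 0.303. PSBX lost it without Light replicate 1, Light replicate 3 or Dark replicate 3 (edgeR adjusted p = 0.144, 0.128 and 0.155). Without Dark replicate 3 only 4 members were called distal, and PSAN and FNR2 were also lost (edgeR adjusted p = 0.0707 and 0.0685). PSAN was lost without Light replicate 2 as well (edgeR adjusted p = 0.0647).

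The shift ran towards the proximal site in PETE2, PSBO1 and PSBQ2. In PETE2 (chromosome 1, minus strand, 7042639 (proximal) and 7042603 (distal)) the distal share was 68.7, 67.9 and 69.0% in Light, against 80.9, 83.1 and 83.0% in Dark (-13.8 points, edgeR adjusted p = 1.81e-04). PETE2 also had a still more distal site at 7042576, which held 8.11, 9.25 and 9.63% of the gene's reads in Light, against 4.18, 5.20 and 4.47% in Dark (edgeR adjusted p = 3.97e-06), so its middle site lost share to both sides. In PSBO1 (chromosome 5, plus strand, 26570193 (proximal) and 26570241 (distal)) the distal share was 71.9, 68.8 and 72.5% in Light, against 80.5, 83.0 and 80.9% in Dark (-10.4 points, edgeR adjusted p = 0.00189). In PSBQ2 (chromosome 4, minus strand, 2672016 (proximal) and 2671959 (distal)) it was 70.2, 69.2 and 72.1% in Light, against 79.2, 81.9 and 81.7% in Dark (-10.4 points, edgeR adjusted p = 0.00671). The RNA level of PSBO1 and PSBQ2 did not pass the test, so their site use differed without a called change in level. PSBQ2 lost its pair call without Light replicate 2 (edgeR adjusted p = 0.0618) and without Dark replicate 3 (edgeR adjusted p = 0.0764).

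The other 6 members called for usage did so through a site outside the main pair, or one that the pair test did not call. In PSAK the last site, at chromosome 1, 10723247, held 11.5, 14.9 and 13.6% of the gene's reads in Light, against 1.80, 1.60 and 3.64% in Dark (edgeR adjusted p = 3.02e-06). The whole gene had 167, 125 and 165 raw reads in Dark, so these Dark shares rest on very few reads. In PSAG the last site, at chromosome 1, 20802695, held 11.5, 12.4 and 14.1% of the gene's reads in Light, against 6.69, 6.76 and 7.02% in Dark (edgeR adjusted p = 3.57e-06). In PSAD2 the last site, at chromosome 1, 753304, held 9.53, 8.33 and 5.86% of the gene's reads in Light, against 1.88, 1.95 and 1.48% in Dark (edgeR adjusted p = 2.09e-07). In all 3 genes this minor end, the farthest along the RNA, had a higher share in Light, and none of their Light and Dark libraries overlapped at it. In PSAK and PSAD2 it lay under the 5% cut in every Dark library and passed through its Light reads. The shared direction of these sites thus follows in part from the cut. In PSAG the site was above 5% in every library.

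PSBW differed, since its middle site at chromosome 2, 13019141, held 10.7, 9.39 and 10.5% of the gene's reads in Light, against 18.7, 22.9 and 22.2% in Dark (edgeR adjusted p = 8.81e-07), and so lost share in Light. The last sites of PSAE1 (chromosome 4, 14202791) and FD2 (chromosome 1, 22445222) held 8.25% and 8.07% in Light, against 5.77% and 4.98% in Dark (edgeR adjusted p = 0.0153 and 0.0189). The usage calls of both genes were near the threshold (edgeR adjusted p = 0.0220 for PSAE1 and 0.0411 for FD2) and each was lost in 5 of the 6 fits that left out 1 library. PSBX and PSBP1 lost theirs in 2 and 3 of these fits.

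The remaining genes of the pathway were taken from lists of related proteins. Of 20 assembly factors of the photosystems and thylakoid complexes, 16 rose in Light, 1 fell and 3 missed the threshold, with a median log2 change of 1.14. Of all genes, 37.4% rose and 35.6% fell. MET1 (AT1G55480), which promotes the assembly of photosystem II supercomplexes, had 112, 125 and 132 CPM in Light, against 11.2, 11.4 and 9.36 CPM in Dark (11.5-fold higher, edgeR adjusted p = 3.99e-11). HCF101 (AT3G24430), which delivers iron-sulfur clusters for photosystem I, and LQY1 (AT1G75690), which acts in photosystem II repair, were 7.10-fold and 6.18-fold higher (edgeR adjusted p = 6.83e-09 and 6.46e-08). HCF136 (AT5G23120), an early assembly factor of photosystem II, was 1.25-fold lower (edgeR adjusted p = 0.0205), a direction that turned with library totals alone (log2 change 0.14).

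Of 17 nuclear subunits of the NDH complex, which also carries cyclic electron flow around photosystem I, 15 rose, 1 fell and 1 missed the threshold, with a median log2 change of 2.81, while 37.4% of all genes rose and 35.6% fell. This median is above the median of 1.29 for the 37 genes, and the difference was not tested. Several NDH genes were low in Dark. The gene at the NDH median had 4.74, 1.22 and 2.38 CPM in Dark, and its log2 change had an SE of 0.56. NDHM (AT4G37925) had 16.2, 18.3 and 15.1 CPM in Light, against 0.877, 0.262 and 0.575 CPM in Dark (edgeR adjusted p = 1.82e-09). PNSB1 and PNSB5, also subunits of the complex, were 20.8-fold and 16.6-fold higher (edgeR adjusted p = 6.34e-11 and 8.54e-11). NDHS (AT4G23890), which forms the ferredoxin binding site, was 2.09-fold lower, with 29.5, 28.8 and 23.9 CPM in Light, against 55.1, 57.6 and 59.4 CPM in Dark (edgeR adjusted p = 1.44e-06).

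Of 9 other carriers and small subunits, 6 were higher and 3 lower, against 37.4% and 35.6% of all genes, with a median log2 change of 0.96. The part that was lower is near that of all genes. PETM (AT2G26500), a small subunit of the same cytochrome complex as PETC, had 838, 696 and 793 CPM in Light, against 2229, 2364 and 2404 CPM in Dark, and was 3.01-fold lower (edgeR adjusted p = 1.60e-08). CYTC6A (AT5G45040), a cytochrome of the thylakoid lumen, was 2.52-fold lower (edgeR adjusted p = 3.63e-06), and PTOX (AT4G22260), the plastid terminal oxidase, was 1.26-fold lower (edgeR adjusted p = 0.0103), the direction of PTOX turning with library totals alone (log2 change 0.12). PPL1 (AT3G55330), a PsbP-like protein of photosystem II repair, RFNR2, a root-type oxidoreductase, and FDC2, a ferredoxin-like protein, were 6.98-fold, 6.31-fold and 3.85-fold higher (edgeR adjusted p = 1.82e-10, 2.55e-08 and 1.02e-06). The groups did not overlap in any of the 9 genes, as in 75.7% of all genes.

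**Figure D5:**
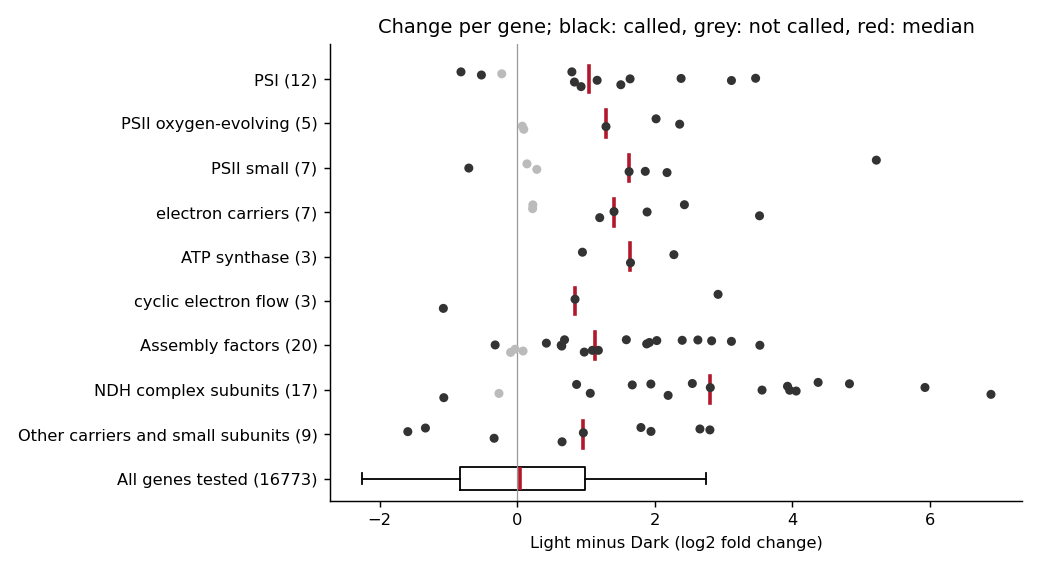
Log2 change in level, Light minus Dark, of each of the 37 genes grouped by role, and of the genes of the 3 other pathway lists (black points passed the test, grey ones did not, red lines are medians), above a box of the quartiles of all genes with whiskers at percentiles 5 and 95. The medians are 1.29 for the 37 genes, 1.14 for assembly factors, 2.81 for NDH subunits and 0.96 for other carriers.

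Markers of other tissues in the seedlings were read as well. Of 6 root markers, 3 had enough reads to be assigned, and their sum lay between 6605 and 7773 CPM in Light, against 1113 to 2037 CPM in Dark, nearly all of it from PYK10, a beta-glucosidase of roots and hypocotyls. Without PYK10 the sum was 9.78 to 11.9 CPM in Light, against 11.6 to 14.3 CPM in Dark. EXPA7, COBL9 and RHD6, markers of root hairs, had too few reads to be assigned in either group. The 4 markers of shoot epidermis and guard cells did not move together. ATML1 was lower in Light (log2 change -0.55, edgeR adjusted p = 3.69e-04), PDF1 was higher (log2 change 0.74, edgeR adjusted p = 0.0216), and FAMA and MYB60 were not called. They summed to 83.2 to 93.2 CPM in Light, against 70.3 to 95.3 CPM in Dark, and the 2 phloem markers to 4.81 to 6.06 CPM in Light, against 6.74 to 7.89 CPM in Dark. Of these, APL was lower (log2 change -0.90, edgeR adjusted p = 0.00134) and SUC2 was not called. The part of these shifts in the changes of the 37 genes was not tested.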

How the data were processed

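The authors deposited, per the file header, raw counts of 6 libraries at 217870 poly(A) site clusters, and the 6 columns match the sample titles. The submitters' processing notes name Bowtie2 and TAIR10. Neither the clustering rule nor the treatment of multi-mapped reads is stated in them.

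Clusters were assigned to 27444 nuclear genes for proteins in RefSeq's table (TAIR10.1), which gave names and gene ends and lists PETE2 as DRT112, FD2 as FED A, ATPG as PDE334 and PSBQ1 as PSBQA. A gene's strand was inferred from the reads near its ends (at least 20 reads, 90% on 1 strand), which resolved 18430 genes. Clusters on that strand within the gene or up to 200 nt past its 3' end were summed, which took 97.1% of reads. Clusters shared between genes, or near (50 nt) a gene for rRNA, tRNA, snRNA or snoRNA, were left out.

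Levels were tested with edgeR 4.0.16 in R 4.3.3 (TMM, filterByExpr with minimum count 10 and minimum total 15, quasi-likelihood test, Light minus Dark, Benjamini-Hochberg over 16773 genes, threshold 0.05). The SE of a log2 change was taken from log2 CPM per library with a prior count of 0.5. Site usage was tested with diffSpliceDGE on clusters with at least 5% of their gene's reads over all libraries together, and paralog ratios with an exact permutation test. DESeq2 1.42.0 and limma 3.58.1 served as alternatives, beside other scalings, filters, reaches past the gene end and libraries left out. The fits were tested on simulated data. The pair of replicates that differed most, Dark replicates 1 and 2, had a chi-square per degree of freedom of 28.7 and the closest pair 6.48, so no library was a copy of another. Dark replicate 2 was also in the next widest pair, with 14.3 against Dark replicate 3, while Dark replicates 1 and 3 had 7.46.

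All members were named with their values, and of each other pathway list the 3 genes with the largest rise and fall among those called, at 10 CPM or more and without overlap. The members and lists were chosen with earlier results of these data known.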

Additional observations from a re-analysis of the deposited data

Results flagged for a closer look

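Reads on the strand opposite a member were not part of the level of any member. Among the 5 members with at least 100 such reads, they were higher in every Light library than in every Dark library in 4. The same holds for the level of 39.1% of all genes, and these reads belong to neighbouring genes, so the count says little about the members. Within PSBR they averaged 65.6 ± 1.97 CPM in Light and 33.8 ± 2.27 CPM in Dark, and all of them were assigned to the neighbouring gene RECA1. Within PSBX they averaged 16.9 ± 1.28 CPM in Light and 9.60 ± 1.46 CPM in Dark, and were assigned to RPA1A. Within PSAE2 they averaged 8.50 ± 0.770 CPM in Light and 1.83 ± 0.238 CPM in Dark, nearly all of them assigned to AT2G20270. Within PSAE1 they averaged 2.31 ± 0.200 CPM in Light and 0.0292 ± 0.0505 CPM in Dark, assigned to AT4G28740 (SD, n = 3 each). PSAE1 and PSAE2, whose own levels changed in opposite directions, thus both had more opposite-strand reads in Light. The fifth member, FNR1, had fewer in Light, with 4.54 ± 0.563 CPM in Light and 41.9 ± 3.63 CPM in Dark, assigned to AT5G66180.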

How the results depend on the processing

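Under 14 alternatives for the gene level, the count of members called higher stayed between 26 and 32 and that of members called lower between 2 and 5. The lowest of these, 2 members, came with library totals alone, where PSAN and PSB27 lost their calls and the log2 change of PSAH1 turned to 0.23. The 9 paralog ratios kept their direction in all 9 alternatives run for each. The count of members called for site usage lay between 13 of 28 tested (at least 10% of reads per site) and 25 of 35 (at least 1%). Of all genes tested, 20.8% and 31.7% were called at these settings. PSAD2, PSAE1 and FD2 lost the call at 10% (adjusted p = 0.762, 0.561 and 0.378), and PSAD2 and PSBX lost it with no reach past the gene end (adjusted p = 0.723 and 0.326). Leaving out 1 library moved the count of all pairs called between 1028 (without Dark replicate 3; 1159 without Light replicate 2) and 1723, of members called distal between 4 (without Dark replicate 3) and 9, and of members called proximal between 2 and 4. Of pairs that were not called, the shift in points ranged across 0 when 1 library was left out, from -3.42 to 3.54 in PSAK, from -0.72 to 4.08 in PSBY, from -2.64 to 0.339 in FD2 and from -8.4 to 3.27 in PSB28. Gene by gene, 505 of 518 log2 changes and 245 of 270 pair tests kept direction and call. The usage tests give no direction, and 355 of 388 kept the call. The causes of these changes were not tested. Same-numbered libraries deviated together only weakly (correlations 0.046, 0.012 and 0.043), against -0.044 to 0.0057 for Light and Dark libraries of different numbers. The labels do not say that the numbers pair samples, so they were not taken as pairs. With the replicate number as a block, 12094 genes and the same counts of members were called for level, 18 members for site usage, and 7 distal and 4 proximal pairs, PSBP1 being lost (adjusted p = 0.0544) and PSBO2 gained (adjusted p = 0.00266). Merging clusters within 24 nt changed no member's call, since 0.0305% of neighbouring clusters lay that close. Depth limits PSB28, PGRL1A and PGRL1B, which had under 100 reads in at least 1 library.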
